A study of Homo sapiens with 4 samples.

Results

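Untreated OVCA420 cells in which 3 or more *KRT13* transcripts were counted were compared with untreated cells in which none was counted. The line OVCA420 was derived from an epithelial cancer of the ovary and was grown in medium with 10% fetal bovine serum. The cells came from the control library (Ctrl), which received no cytokine, of a droplet-based scRNA-seq time course in which 3 other cultures of the same line received 10 ng/mL TGF-β1 for 1, 3 or 7 days. Each condition has 1 library, so values within Ctrl compare cells of 1 culture and no p-value is given. Cells with more than 200 genes, at most 20% of unique molecular identifiers (UMIs, counts of single captured transcripts) on mitochondrial genes and at least 18000 UMIs were considered. Cells were then chosen by their *KRT13* UMIs alone, 3 or more for KRT13-positive and 0 for KRT13-negative cells, so the *KRT13* counts of the groups are no result. This gave 133 positive and 531 negative cells among the 844 Ctrl cells that passed the limits, out of 941 Ctrl cells and 3170 cells of the whole series analysed here. The other 180 cells held 1 or 2 *KRT13* UMIs and belong to neither group.

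Keratins are the intermediate filament proteins of epithelial cells and assemble as pairs of a type I and a type II protein. *KRT13* encodes a type I keratin of the layers above the basal layer in stratified, non-cornified epithelia such as oral and oesophageal mucosa, where its usual type II partner is *KRT4*. *KRT5* and *KRT14* mark the basal layer of stratified epithelia, *KRT6A*, *KRT16* and *KRT17* mark activated or healing stratified epithelia, and *KRT7*, *KRT8*, *KRT18* and *KRT19* are keratins of simple epithelia, the kind from which most carcinomas arise.

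*KRT13* (GRCh38 chr17:41500981-41505705, minus strand) was unevenly spread over the Ctrl cells. The 844 cells held 1881 *KRT13* UMIs. Of these, 1661 (88.3%) lay in the 133 positive cells, a share that follows in part from choosing the cells by these UMIs. In the positive cells the lowest count was 3 by construction, the median 7 and the highest 93. The 10 cells with the most *KRT13* held 27.2% of its UMIs, and 7 cells had 40 or more. Of the cells near the limit, 26 had exactly 3 UMIs, 40 had 2 and 140 had 1. After each cell was thinned to 18000 UMIs, the Fano factor (variance over mean) of *KRT13* was 16.4, against 14.8 for *KRT17*, 8.55 for *KRT19*, 7.37 for *KRT18*, 5.47 for *KRT8*, 5.32 for *KRT6A* and 2.95 for *KRT7*. Positive cells were found over the whole range of depth, as the plot of *KRT13* UMIs by depth shows, and the 3 deepest cells of all had 3 or 4 *KRT13* UMIs. No cell type known to lack *KRT13* was sampled, so the part of free RNA in the low counts was not tested.

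**Figure D1:**
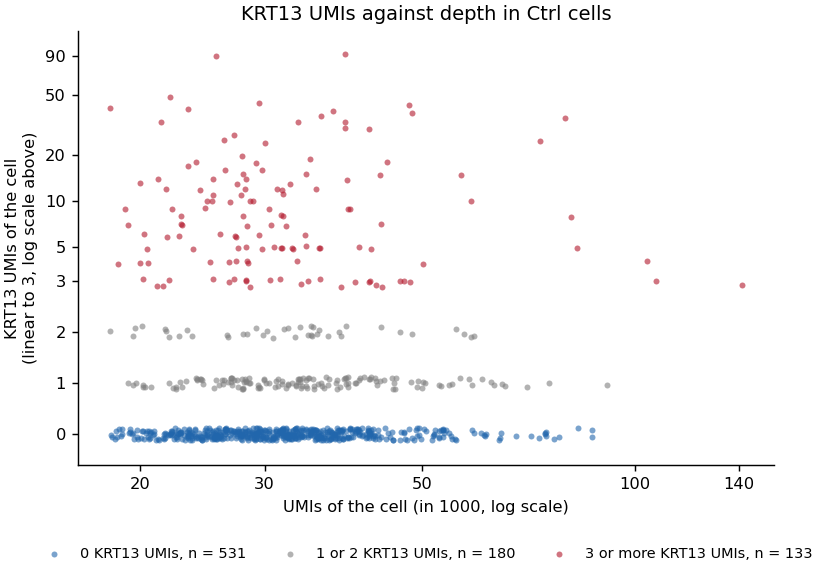
Each point is 1 of the 844 Ctrl cells, with its total UMIs on a log axis and its *KRT13* UMIs on an axis that is linear to 3 and logarithmic above. The 133 positive cells (3 or more UMIs) reach 93 UMIs and spread over the same depths as the 531 negative cells (0 UMIs), apart from 3 positive cells with 104060 to 141664 UMIs.

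The groups had similar depth. Positive cells held 4567251 UMIs in all, with a median of 29489 per cell (18153 to 141664), and negative cells 17861510, with a median of 31694 (18212 to 86913). The median number of genes detected was 5344 and 5300, and 4192 and 4067 at 18000 UMIs per cell. Mitochondrial UMIs had a median of 8.54% in positive and 8.26% in negative cells. Scrublet marked 1 positive and 4 negative cells as doublets, and these were kept. The positive cell with 141664 UMIs had exactly 3 *KRT13* UMIs. Of the 844 cell barcodes, 16 also occurred in a treated library, 2 of them positive and 11 negative.

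Both groups carried epithelial markers. *EPCAM* was at 329 CPM (UMIs of a gene per 1000000 UMIs of the group) in positive and 331 in negative cells, and *ELF3*, an epithelial transcription factor, at 254 and 262 CPM. *PAX8* and *WFDC2*, markers of Müllerian epithelium and serous ovarian carcinoma, were almost not counted, at 0.44 and 0.34 CPM for *PAX8* and 0 and 0.06 CPM for *WFDC2*. Of 13 marker genes of leukocytes, red cells, fibroblasts and endothelium, 4 were at 0 UMIs in both groups and none reached the level at which genes were counted. Their summed level was 14.9 CPM in positive and 7.33 CPM in negative cells, most of it *CDH5*, an endothelial cadherin (10.3 and 4.03 CPM). Of the leukocyte markers, *PTPRC* was at 0 and 0.11 CPM and *CD3E*, of T cells, at 0 and 0.06 CPM. *LYZ* was at 1.31 and 0.34 CPM and *CD68* at 1.97 and 1.57 CPM. The part of these transcripts in the results was not tested.

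Across the 7617 genes with a mean level of at least 10 CPM over the groups, *KRT13* left out, 281 (3.69%) were at least 1.5-fold higher in positive cells and 67 (0.88%) at least 1.5-fold lower. The median log2 ratio of all 7617 genes was 0.05, and 4602 of them had a ratio above 0. A gene under 10 CPM in 1 group was counted only through the other group, which favours a large ratio. With median-of-ratios scaling in place of CPM the counts were 173 higher and 101 lower, so that the share of higher genes among those past 1.5-fold went from 80.75% to 63.14%. A change of at least 2-fold was found for 58 genes in the higher and 15 in the lower direction. All intervals given are 95% exact intervals that cover counting error only, and they do not include the spread between cultures, which 1 library cannot give.

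**Figure D2:**
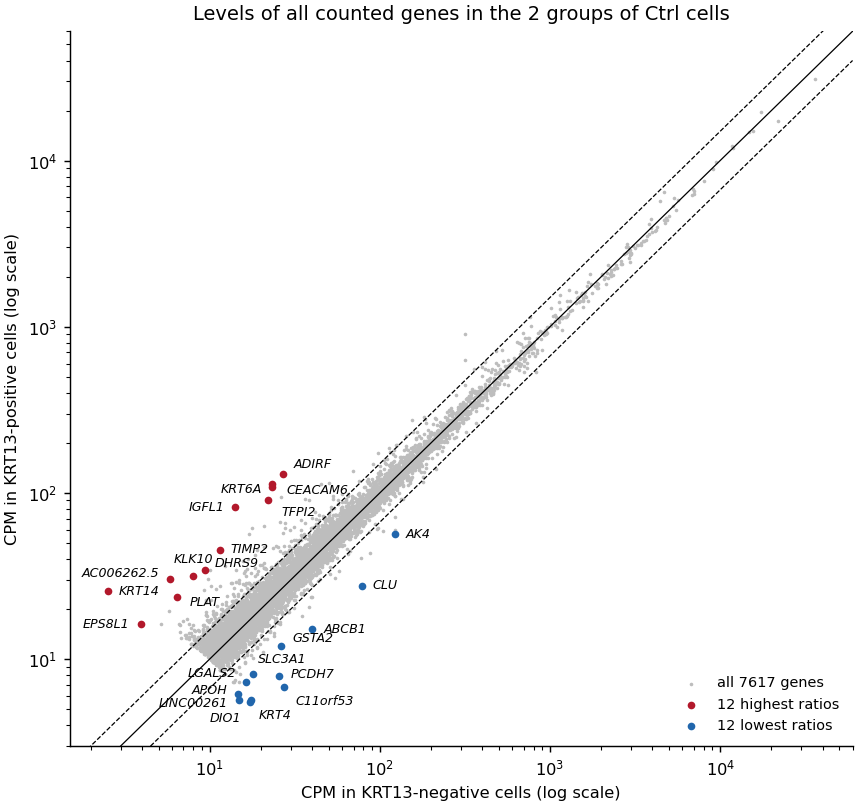
Each point is 1 of 7617 genes, with its CPM in the 531 KRT13-negative cells against its CPM in the 133 KRT13-positive cells, both on log axes. The solid line marks equal levels and the dashed lines 1.5-fold. The 12 genes with the highest ratios go from 2.52 (*KRT14*) to 27.0 CPM (*ADIRF*) in negative cells. In positive cells they go from 16.2 (*EPS8L1*) to 130 CPM (*ADIRF*). The 12 lowest include *AK4* and *CLU*, the most abundant of them.

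Among the keratins, those of stratified epithelium differed most, and not all in the same direction. *KRT6A* (chr12:52487176-52493257) was at 112 CPM (103 to 122) in positive and 23.3 CPM (21.2 to 25.7) in negative cells, a log2 ratio of 2.27 (2.08 to 2.46). At 18000 UMIs per cell, 53.4% of positive and 19.8% of negative cells had at least 1 *KRT6A* UMI. *KRT17* (chr17:41619442-41624842), which was named for its family after its values had been seen, was by far the most abundant of these keratins, at 906 and 315 CPM, a log2 ratio of 1.52 (1.47 to 1.58), and 97.0% against 76.8% of cells had a UMI. The basal keratin *KRT14* (chr17:41582279-41586895) was at 25.6 and 2.52 CPM, a log2 ratio of 3.35 (2.84 to 3.88), the highest of all genes named by rank. That value leaned on 1 cell, which had 58 of the 117 *KRT14* UMIs of the positive group. Without that cell *KRT14* was at 12.98 and 2.52 CPM, a log2 ratio of 2.37. The mean of the groups was then under 10 CPM, so the gene was counted only through that cell. With that cell included, the share of cells with a UMI at equal depth was 15.04% (9.43 to 22.3) in positive against 3.01% (1.73 to 4.85) in negative cells.

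The usual partner of *KRT13* went the other way. *KRT4* (chr12:52806549-52814116) was at 5.69 CPM in positive and 17.6 CPM in negative cells, a log2 ratio of -1.63 (-2.26 to -1.05). Few cells carried it, 7.52% (3.67 to 13.4) of positive and 12.2% (9.58 to 15.3) of negative cells at equal depth, and these intervals overlap. Among all 844 cells, *KRT13* was detected in 18.9% of the 95 cells with *KRT4* and in 29.2% of the cells without it, and *KRT6A* in 11.6% and 27.2%. *KRT5*, the basal type II keratin, had 1 UMI in the positive and 0 in the negative cells. *KRT16* had 10 and 5 UMIs. The genes *KRT13*, *KRT14*, *KRT16* and *KRT17* lie within 1 cluster on chromosome 17, and *KRT14*, *KRT16* and *KRT17* are similar enough in sequence, as are *KRT6A*, *KRT6B* and *KRT6C*, that the assignment of reads among them is uncertain.

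The keratins of simple epithelium differed little. *KRT8* was at 1159 and 1045 CPM, a log2 ratio of 0.15 (0.11 to 0.19), *KRT18* at 860 and 842 CPM (log2 0.03), *KRT7* at 407 and 339 CPM (0.26) and *KRT19* at 1413 and 1131 CPM (0.32). Only *KRT20*, the fifth of the list and a keratin of gut lining, passed 1.5-fold, at 20.8 and 11.03 CPM (0.92). *KRT10*, the suprabasal keratin of skin, had a log2 ratio of -0.03, and *KRT15* one of 0.43.

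Of 56 stratified epithelium genes, 26 were counted, and 10 of these (38.5%) were at least 1.5-fold higher and 1 (*KRT4*) lower, with a median log2 ratio of 0.41 and 21 above 0. For comparison, 3.69% of all genes were higher, and 4602 of the 7617 genes had a ratio above 0. *KRT13* itself was not in these counts. The list was chosen with earlier results of these data known, so its share is a description only. Of its higher members, *KRT14* and *KLK10* were under 10 CPM in negative cells. They were counted only through the positive cells, which favours a high ratio. Besides the keratins, the higher members were *KLK10*, a secreted serine protease, at 31.5 and 8.01 CPM (log2 1.98), *EMP1*, a membrane protein of squamous cells (1.35), *CSTA*, a protease inhibitor of the cornified envelope (1.31), *TGM2*, a transglutaminase (1.28), *TRIM29* (1.24), *SERPINB5*, a serpin known as maspin (0.80), and *JUP*, plakoglobin of desmosomes (0.62). Abundant members such as *SFN* (stratifin, 717 and 480 CPM, 0.58) and *CSTB* (507 and 398 CPM, 0.35) stayed under 1.5-fold. *ANXA1* was at 383 and 416 CPM (-0.12).

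Some cornification genes were too low to be counted. *SPRR1B*, a small proline-rich protein cross-linked into the cornified envelope, had 39 UMIs in 17 positive cells against 1 UMI in 1 negative cell. *SPRR3*, the member of that family found in oesophagus, had 57 UMIs in 10 positive cells and 11 UMIs in 6 negative cells. At equal depth, 7.52% (3.67 to 13.4) of positive and 0.19% (0.0048 to 1.04) of negative cells had *SPRR1B*. *SCEL* (sciellin) was at 13.4 and 4.76 CPM, and *LYPD3* at 12.3 and 3.98 CPM. A UMI was held by 41 and 33 of the 133 positive cells and by 68 and 58 of the 531 negative cells. At equal depth, 21.1% of positive and 7.72% of negative cells had *SCEL*, and 15.04% and 6.21% had *LYPD3*. Each of these genes was found in a minority of the positive cells. Of the 56 genes, 12 had no UMI in either group. The involucrin gene *IVL* had 0.22 CPM in positive and 0 in negative cells.

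The other genes with the highest ratios were of several kinds. *IGFL1*, an insulin growth factor-like protein of skin, was at 81.7 (73.6 to 90.4) and 14.1 CPM (12.4 to 15.96), a log2 ratio of 2.53 (2.30 to 2.77). As with *KRT14*, few cells held it, with 86.6% of its UMIs in 10 positive cells and 122 of 373 in 1 cell, without which the log2 ratio was 1.97. At equal depth 20.3% of positive and 3.95% of negative cells had *IGFL1*. *AC006262.5* (chr19:46189029-46203160), a gene near *IGFL1* (chr19:46229742-46231243), was at 30.4 and 5.82 CPM (2.39). *ADIRF*, an adipogenesis factor, was at 130 and 27.0 CPM (2.26), found in 60.2% and 33.1% of cells. *CEACAM6*, a cell surface adhesion protein of carcinomas, was at 108 and 23.4 CPM (2.21), but the share of cells was closer, at 27.1% (19.7 to 35.5) and 16.01% (12.99 to 19.4). Its paralog *CEACAM5*, from which some reads may not be told apart, was at 14.5 and 6.72 CPM (1.10).

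Of the same 12 genes, *TFPI2*, a Kunitz inhibitor of plasmin and other serine proteases, was at 90.7 and 22.1 CPM (log2 2.04, 1.83 to 2.24). The cell with most *KRT14* also held 99 of its 414 UMIs, and the log2 ratio without that cell was 1.65. *TIMP2*, an inhibitor of matrix metalloproteinases, was at 45.3 and 11.4 CPM (1.99) and *PLAT*, tissue plasminogen activator, at 23.7 and 6.44 CPM (1.88). *EPS8L1*, an actin regulator, was at 16.2 and 3.92 CPM (2.05). *DHRS9*, which oxidises retinol and related alcohols, was at 34.2 and 9.41 CPM (1.86). Of the 12 highest genes, *KRT14*, *AC006262.5*, *EPS8L1*, *KLK10*, *PLAT* and *DHRS9* were under 10 CPM in negative cells. They were counted only through the positive cells, which favours a high ratio.

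Some further genes with a log2 ratio of about 1 or more are given here, chosen after their values had been seen. *COL17A1*, the hemidesmosome collagen of basal cells, was at 61.3 and 27.8 CPM (log2 1.14) and was found in 61.7% of positive and 28.8% of negative cells. *SPINK5*, an inhibitor of epidermal kallikreins, was at 34.4 and 9.97 CPM (1.79) and *CALML3*, a calmodulin-like protein of stratified epithelium, at 30.4 and 9.74 CPM (1.64). A single positive cell held 32 of the 139 *CALML3* UMIs of its group, and the log2 ratio without it was 1.28. *FGFBP1*, a carrier of fibroblast growth factors, was at 56.5 and 17.0 CPM (1.74), and 1.48 without the cell with most *FGFBP1*. *PLAUR*, the urokinase receptor, was at 19.5 and 5.77 CPM (1.76), and 1.12 without the cell with most *PLAUR*, which was also the cell richest in *KRT14* and *TFPI2*. *SPINK5*, *CALML3* and *PLAUR* were under 10 CPM in negative cells and were counted only through the positive cells, which favours a high ratio.

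At the other end, the 12 genes with the lowest ratios were *KRT4* and the following. *CLU*, the secreted chaperone clusterin, was at 27.6 CPM (23.0 to 32.8) in positive and 78.3 CPM (74.2 to 82.5) in negative cells, a log2 ratio of -1.50 (-1.78 to -1.24), and 29.3% against 57.8% of cells had a UMI. *AK4*, a mitochondrial adenylate kinase, was at 56.3 and 123 CPM (-1.12, -1.32 to -0.94), found in 46.6% and 78.9% of cells. *C11orf53* had the lowest ratio, with 6.79 and 27.4 CPM (-2.01), and *PCDH7*, a protocadherin, was at 7.88 and 25.6 CPM (-1.70). *DIO1*, which activates thyroid hormone, was at 5.47 and 17.2 CPM (-1.66), and *ABCB1*, the drug efflux pump P-glycoprotein, at 15.1 and 40.1 CPM (-1.41). The remaining members were the noncoding RNA *LINC00261* (-1.38), *APOH*, a plasma apolipoprotein (-1.26), the galectin *LGALS2* (-1.18), *SLC3A1*, a subunit of a cystine transporter (-1.15), and *GSTA2*, a glutathione transferase (-1.13). For *DIO1*, as for *KRT4*, the intervals of the share of cells at equal depth overlapped. Of the 12 lowest genes, all but *CLU*, *AK4*, *ABCB1* and *GSTA2* were under 10 CPM in positive cells. Those genes were counted only through the negative cells, which favours a low ratio.

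Levels of the leading genes are given here by *KRT13* class as a description, since the genes were chosen for their difference between cells with 0 and with 3 or more *KRT13* UMIs, which fixes the order of the outer classes. *KRT6A* was at 23.4 CPM in cells with 0 *KRT13* UMIs, 31.9 with 1 to 2, 77.0 with 3 to 9 and 167 with 10 or more. *ADIRF* went through 27.0, 38.8, 91.4 and 190 CPM in the same classes, and *KRT17* through 315, 340, 762 and 1129 CPM. In the opposite direction, *CLU* was at 78.3, 65.9, 30.9 and 22.4 CPM and *AK4* at 123, 120, 62.6 and 46.5 CPM. *IGFL1*, with 14.1, 4.85, 77.0 and 89.0 CPM, did not follow the order of the classes, nor did *C11orf53* and *GSTA2* among the lowest genes. Just inside and outside the limit, *KRT6A* was at 59.7 CPM in the 26 cells with 3 UMIs and 31.3 CPM in the 40 cells with 2, *KRT17* at 751 and 408 CPM, *CEACAM6* at 20.8 and 27.6 CPM, and *CLU* at 36.9 and 48.4 CPM.

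**Figure D3:**
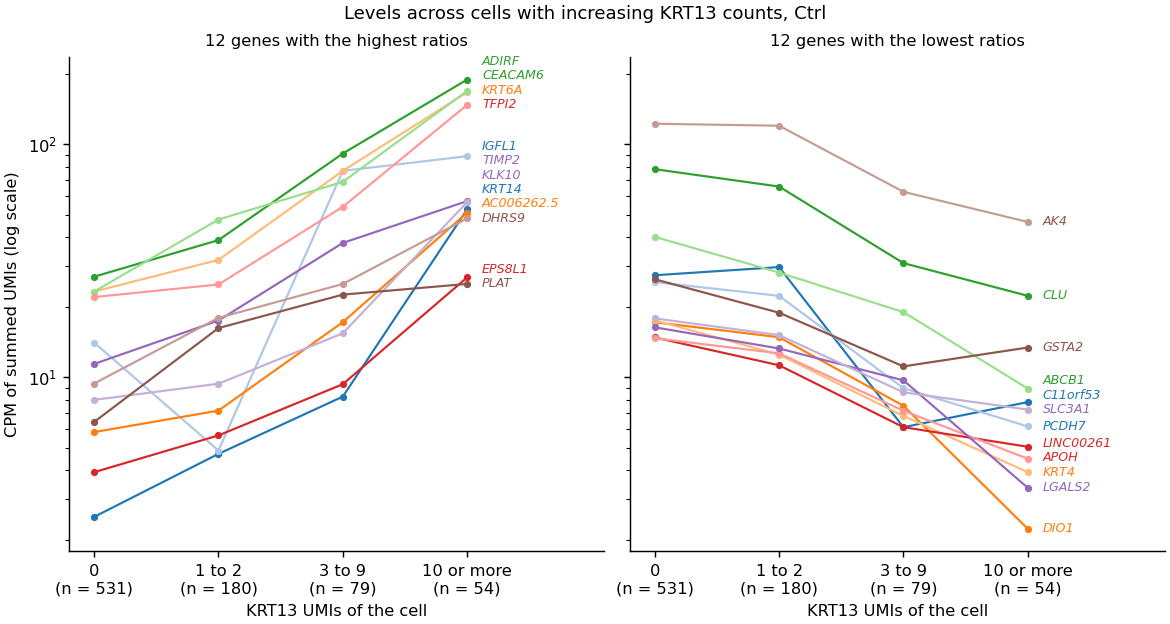
CPM (log axis) of the 12 genes with the highest ratios (left) and the 12 with the lowest (right) in Ctrl cells with 0, 1 to 2, 3 to 9, and 10 or more *KRT13* UMIs, with 531, 180, 79 and 54 cells. *KRT6A* goes from 23.4 to 167 CPM over the classes and *CLU* from 78.3 to 22.4 CPM, while *IGFL1* dips to 4.85 CPM at 1 to 2 UMIs.

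At equal depth, positive cells had a UMI of only some of the leading genes. A cell without a UMI of a gene may still express it, so absence was not tested. These genes were chosen for higher levels in the same positive cells, so the difference in the numbers below is fixed by the choice and only their spread among cells is described. At 18000 UMIs per cell, a positive cell had a UMI of a median of 3 of the 12 highest genes (range 0 to 11), against 2 in cells with 1 or 2 *KRT13* UMIs and 1 in negative cells. At least 6 of the 12 were found in 21 of 133 positive cells (15.8%) and in 7 of 531 negative cells (1.32%), and none in 3 and 135 cells. Positive cells with *EPS8L1* had a median of 5 of the other highest genes, against 3 in positive cells without it. The values were the same for *DHRS9*, while for *TFPI2* and *PLAT* they were 3 and 3. For none of the 12 was the median lower in cells with the gene. Of the 12 lowest genes, positive cells had a median of 2 and negative cells of 3. Among positive cells, 11 of the 20 cells with *KRT14* had *IGFL1* (55.0%), against 14.2% of the cells without *KRT14*, and 17 of the 20 had *KRT6A* (85.0% against 47.8%). *CEACAM6* was found in 2 of these 20 cells (10.0%), against 30.1% of the positive cells without *KRT14*, but over all 844 cells it was found in 17.8% of cells with *KRT14* and 19.4% of cells without it, and in negative cells in 18.75% and 15.9%. These pairs were chosen after the values of single genes had been seen.

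Phase calls differed between the groups. At equal depth, 29.3% (21.8 to 37.8) of positive cells and 42.9% (38.7 to 47.3) of negative cells were called G2/M. For S the shares were 39.8% (31.5 to 48.7) and 30.3% (26.4 to 34.4). For G1 they were 30.8% (23.1 to 39.4) and 26.7% (23.0 to 30.7), and the intervals overlap for both S and G1. Of the cells with 1 or 2 *KRT13* UMIs, 41.7% were called G2/M. The phases were called from the same lists of G2/M and S phase genes, so the ratios of these genes are no separate result. Of 46 counted G2/M genes, 9 had a ratio above 0 and the median log2 ratio was -0.16. Only *CENPE*, a kinetochore motor, passed 1.5-fold (14.7 and 22.7 CPM, -0.63), *UBE2C* was at 134 and 181 CPM (-0.43) and *CDK1* at 52.1 and 53.97 CPM (-0.05). Of 38 counted S phase genes, 31 had a ratio above 0 and the median was 0.14, with *CCNE2*, cyclin E2, past 1.5-fold (0.61), although its log2 ratio was -0.57 among the 41 positive and 142 negative cells in G1. *CDKN1A*, the CDK inhibitor p21, was at 70.9 and 39.9 CPM (0.83), and *PLK2*, another p53 target, at 22.1 and 12.4 CPM (0.83), the 2 of 11 genes of their list past 1.5-fold. Within G1 the log2 ratio of *CDKN1A* was 1.42. The counts past 1.5-fold in these lists can be read beside the 3.69% of all genes that were higher and the 0.88% lower. The counts above 0 can be read beside the 4602 of all 7617 genes with a ratio above 0.

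Within a list named for mesenchymal and matrix genes, some genes that anchor basal cells to laminin were higher. The laminin-332 chain *LAMB3* was at 91.5 and 53.3 CPM (log2 0.78), and the hemidesmosome integrin subunits *ITGB4* and *ITGA6* were at 176 and 115 CPM (0.62) and at 65.2 and 42.5 CPM (0.62). *FN1*, fibronectin, was at 41.8 and 48.7 CPM (-0.22), and *VIM*, the mesenchymal intermediate filament, was listed at 0 in both groups. The median log2 ratio of the 10 counted genes of the list was 0.58.

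Of 30 listed transcription factors of epithelia, 18 were counted, and all 18 differed by less than 1.5-fold, with a median of 0.26. *TP63*, the regulator of stratified epithelium, was at 78.8 and 62.3 CPM (log2 0.34, 0.16 to 0.51) and *ELF1* had the highest ratio of the 18 (0.55). Among those too low to be counted, *OVOL1* was at 5.91 and 2.30 CPM (1.36, 0.61 to 2.10) and *KLF4* at 11.2 and 7.22 CPM (0.63, 0.13 to 1.11). *SOX2* (0.66 and 1.57 CPM), *GRHL3* (0.44 and 0.56) and *ZNF750* (0 and 0.22) had lower values in positive cells, at levels too low to give a direction. Their log2 intervals included 0 (-3.62 to 0.44 for *SOX2*, -3.59 to 1.88 for *GRHL3* and up to 2.57 for *ZNF750*). None of 8 counted Notch genes passed 1.5-fold, where 3.69% of all genes were higher, with *NOTCH3* at 0.44 and *JAG1* at 0.28. Of 10 genes of retinoid handling, 2 passed, *CRABP2*, which carries retinoic acid to the nucleus (16.2 and 5.15 CPM, 1.65), and *TGM2*, which is also in the stratified epithelium list. *CRABP2* was counted only through the positive cells, which favours a high ratio. *ALDH1A3*, which makes retinoic acid, was at 57.4 and 41.0 CPM (0.49) and *RARB*, a receptor, at 8.54 and 9.63 CPM (-0.17).

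Counts in the signalling and surface lists can be read against the 3.69% of all genes that were higher and the 0.88% that were lower. Of 17 immediate early genes, *DUSP6*, a phosphatase that acts on ERK (57.1 and 27.0 CPM, log2 1.08), and *NR4A1* (1.10) passed 1.5-fold, while *FOS* was at 22.8 and 18.9 CPM (0.27). Of 8 EGFR family genes, *EGFR* (46.9 and 30.5 CPM, 0.62) and its ligand *HBEGF* (0.75) passed, *TGFA* was at 0.33 and *ERBB3* at -0.39. Of 17 junction genes, *CDH3*, P-cadherin (0.78), and *CLDN4*, a claudin (285 and 181 CPM, 0.65), passed, and *CDH1*, E-cadherin, was at 93.9 and 69.5 CPM (0.43). Of 14 NF-kB and cytokine genes, *CXCL8* (117 and 75.7 CPM, 0.63) and *IL1A* (0.60) were higher and *CCL20* lower (13.1 and 21.7 CPM, -0.72). Of 9 secretory genes, *TSPAN1* (136 and 69.5 CPM, 0.97) and *S100P* (1.27) were higher and *CLU* lower. *S100P* (16.9 and 7.00 CPM) and *NR4A1* (16.2 and 7.56 CPM) were counted only through the positive cells, which favours a high ratio. The mucin *MUC16*, which carries the CA125 antigen, was under the level for counting, at 8.98 and 1.85 CPM, and was found in 10.5% and 2.82% of cells at equal depth.

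Among the stress and metabolic lists, *HSPB1*, a small heat shock protein, was at 1150 and 761 CPM (log2 0.60) and *HSPA1B* at 17.7 and 10.7 CPM (0.72), while *XBP1*, a factor of the unfolded protein response, was at 32.4 and 51.1 CPM (-0.66), and the other 12 of 15 counted stress genes stayed under 1.5-fold. Over all genes counted, 3.69% were higher and 0.88% lower, beside which the counts of these lists can be read. Of 11 interferon genes *PSMB8* (13.4 and 7.22 CPM, 0.89) and *IFITM3* (0.64) passed, of 13 hypoxia genes *NDRG1* (13.8 and 7.84 CPM, 0.82), and of 7 S100 genes *S100P* (16.9 and 7.00 CPM). *PSMB8*, *NDRG1* and *S100P* were counted only through the positive cells, which favours a high ratio. *S100A2*, the most abundant of the 7, was at 5733 and 4442 CPM (0.37). None of 16 cholesterol and fatty acid genes (median 0.15), 18 metallothionein and NRF2 genes (-0.09), 13 mitochondrial transcripts (-0.00) or 83 ribosomal protein genes (-0.09) passed 1.5-fold. *FTH1*, ferritin heavy chain, was at 17404 and 21776 CPM (-0.32), and *TXNRD1*, an NRF2 target, at 534 and 699 CPM (-0.39).

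**Figure D4:**
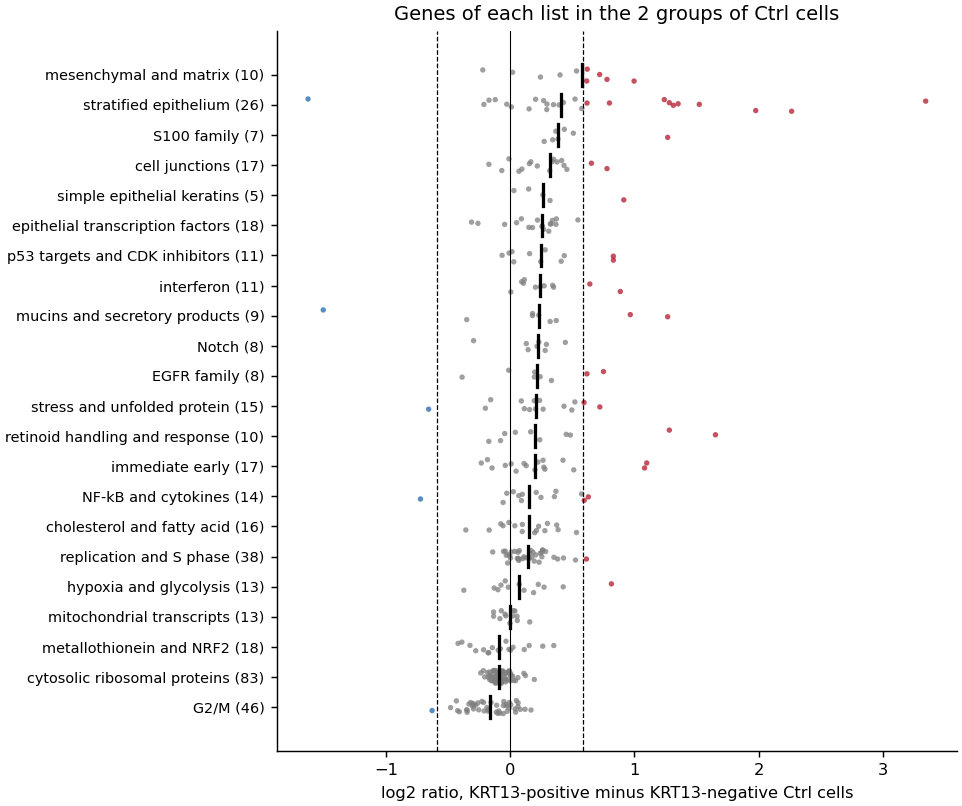
Each point is the log2 ratio of 1 counted gene, KRT13-positive minus KRT13-negative Ctrl cells, in the list on its row, with the number of counted genes in brackets. Black bars mark the median of a list and dashed lines 1.5-fold in either direction. The stratified epithelium genes reach 3.35, with a median of 0.41, and the G2/M genes have the lowest median, -0.16.

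The libraries treated with TGF-β1 took no part in choosing the genes. *KRT13* was rarer there. Over all retained cells it was at 67.0 CPM (64.1 to 70.0) in Ctrl, 7.04 (6.16 to 8.01) at 1-day, 2.36 at 3-day and 1.06 at 7-day, and 13, 7 and 3 cells reached 3 UMIs. At 1-day, 23 cells with 2 or more *KRT13* UMIs could be set against 816 cells with 0. The comparison of so few cells put 442 of 7378 genes (5.99%) at least 1.5-fold higher and 342 (4.64%) at least 1.5-fold lower. A ratio above 0 was found for 3976 of the 7378 genes. Of the 281 genes higher in positive Ctrl cells, 233 were counted at 1-day and 58 of them (24.9%) were higher there too, and 5 lower. Of the 67 lower genes, 40 were counted, 10 were lower and 3 higher. As in Ctrl, a gene under 10 CPM in 1 group was counted only through the other group, which favours a large ratio. Of the 12 highest genes, 9 were counted and 6 passed 1.5-fold, and all 9 had a ratio above 0, with a median log2 of 1.83. Of these, *EPS8L1* and *CEACAM6* were under 10 CPM in negative cells and were counted only through the positive cells, which favours a ratio above 0. The uncounted genes were *PLAT* (2.94), *DHRS9* (1.11) and *KLK10* (0.03), with 7, 4 and 7 UMIs in the positive cells. Of the 12 lowest genes, 5 were counted, 2 passed and none was above 0. Of the 2, *ABCB1* was at 9.47 CPM in positive and 15.2 CPM in negative cells. It was counted only through the negative cells, which favours a ratio under 0. Among the lowest genes left uncounted there, *GSTA2* was at 10.5 and 1.27 CPM (log2 3.05, 1.88 to 4.09) and *LGALS2* at 10.5 and 4.36 CPM (1.27, 0.18 to 2.20). Both went in the opposite direction to Ctrl, with 10 UMIs each in the positive cells.

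*KRT6A* was at 222 CPM in the 23 positive and 37.8 CPM in the negative cells of 1-day (log2 2.55, 2.33 to 2.77). *TIMP2* was at 181 and 37.2 CPM (2.28), *EPS8L1* at 21.0 and 5.45 CPM (1.95), *KRT14* at 102 and 27.1 CPM (1.92), *CEACAM6* at 32.6 and 9.19 CPM (1.83) and *AC006262.5* at 49.4 and 16.4 CPM (1.60). Others did not differ by as much. *ADIRF* was at 31.6 and 29.4 CPM (0.10, -0.48 to 0.63) and *TFPI2* at 65.2 and 55.3 CPM (0.24, -0.15 to 0.60). *IGFL1* was abundant in both, at 1520 and 1161 CPM (0.39). Among the 12 lowest genes, *AK4*, at 29.5 and 51.1 CPM (-0.79, -1.39 to -0.26), was the only one counted at 1-day with an interval under 0, and *ABCB1* (-0.68) was the other past 1.5-fold, whereas *CLU* (-0.16) and *PCDH7* (-0.05) were close to 0. At 3-day and 7-day, with 7 and 3 cells of 3 or more UMIs, *KRT6A* was at 204 CPM (58 UMIs) against 56.1 CPM in negative cells and at 185 CPM (28 UMIs) against 60.8 CPM. *TFPI2* was at 119 CPM against 213 CPM at 3-day (log2 -0.84, -1.37 to -0.35), the opposite direction to Ctrl, and at 1366 CPM against 856 CPM at 7-day.

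**Figure D5:**
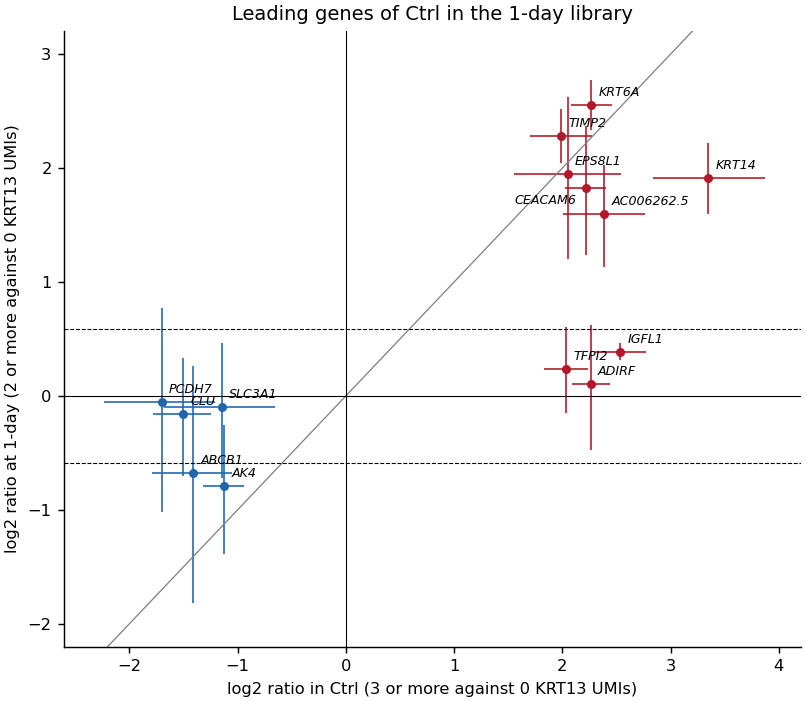
Log2 ratio of the leading genes in Ctrl (133 cells with 3 or more against 531 with 0 *KRT13* UMIs, horizontal axis) and at 1-day (23 cells with 2 or more against 816 with 0, vertical axis), with 95% counting intervals. The 14 genes counted at 1-day are shown, red for the highest and blue for the lowest genes of Ctrl. The dashed lines mark 1.5-fold at 1-day, and *KRT6A* at 2.27 and 2.55 lies close to the line of equal ratios.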

How the data were processed

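The authors processed reads of 10x Genomics 3′ libraries with Cell Ranger (version 2.0.1 in the submitters' notes) on GRCh38 and deposited UMI counts per gene and cell, without normalization. The copy of each matrix used here ended within a cell, so only its first complete cells in file order were analysed, 941 of 3372 barcodes for Ctrl and 945, 712 and 572 cells for 1-day, 3-day and 7-day, and every cell count is of this portion. The 844 Ctrl cells over the limits held 28816040 UMIs.

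UMIs were summed per group and given as CPM with exact Poisson intervals. Log2 ratios have exact conditional binomial intervals and shares of cells exact binomial ones, at 95% and for counting error only. Past 1.5-fold (0.58 on the log2 scale) is a size and not a test. Shares at equal depth, phases (Seurat 5.3.0 lists, scanpy 1.11.5) and Fano factors used cells thinned to 18000 UMIs. Doublets of Ctrl were called with Scrublet. Genes were counted only with 20 or more cells per group, so 1-day used 2 or more *KRT13* UMIs. The versions were Python 3.11.15 and R 4.3.3. The contrast was run on simulated Poisson counts with known fold changes and no further spread between cells. Real counts were more uneven, so that run cannot show how the intervals or the 1.5-fold limit behave here. Gene positions are from GENCODE release 44.

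Genes were named by rank (12 highest and 12 lowest log2 ratios among counted genes with a UMI in at least 10% of the cells of the higher group) and from 23 lists (the first 2 measured genes and up to 4 counted genes with the largest ratios), and others after their values had been seen. Some of these genes are left out of the text. The cells and lists were chosen with earlier results of these data known. Alternatives were other *KRT13*, depth and mitochondrial limits, thinning, G1 cells, doublets left out, scaling and CPM minimum.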

Additional observations from a re-analysis of the deposited data

How the results depend on the processing

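The 281 genes at least 1.5-fold higher and 67 at least 1.5-fold lower in positive cells depended on the limits. With positive cells of 2 or more *KRT13* UMIs the counts were 169 higher and 43 lower, and with 5 or more 440 and 101. Groups chosen on *KRT13* counts at equal depth gave 445 and 104, and cells of 18000 to 40000 UMIs 447 and 98. Cells thinned to 18000 UMIs gave 412 and 105, with 235 of the 412 among the 281. The 41 positive and 142 negative cells in G1 gave 876 and 320. Median-of-ratios scaling gave 173 and 101, a mean of at least 5 CPM 458 and 145, and of at least 50 CPM 49 and 14. The median log2 ratio of the G2/M genes was -0.16, -0.30 with 5 or more UMIs, -0.33 with groups chosen at equal depth and -0.34 in G1. The log2 ratio of *CCNE2*, 0.61, was -0.57 in G1. The cause of these shifts was not tested. The median of the stratified epithelium genes stayed between 0.33 and 0.63, and the count of 58 genes shared with 1-day was 65 with thinned cells. All 24 genes with the highest and lowest ratios stayed past 1.5-fold under each alternative run on them. Several other named genes did not. With median-of-ratios scaling *EGFR* (log2 0.53), *CXCL8* (0.54), *IL1A* (0.51) and *ITGB4* (0.54) were under 1.5-fold. With 2 or more *KRT13* UMIs the same held for *CLDN4* (0.50) and *HSPB1* (0.51), and in G1 for *CCL20* (-0.09) and *CENPE* (-0.07). Leaving out the 10 cells with most *KRT13*, added after the data had been seen, gave 258 higher genes, 246 of them among the 281, and leaving out the richest cell of each leading gene, also added, moved *KRT14* most. Carry-over was not counted at 3-day or 7-day because fewer than 20 cells were positive. No paired analysis was possible because only a single library was made per condition.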
